A study of Mus musculus with 9 samples.

Results

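The interleukin 1 family and inflammasome genes studied here are 10 genes, measured in RAW-264.7 cells, a mouse line with monocyte and macrophage features: the ligands Il1a, Il1b and Il18, the receptor antagonist Il1rn, the receptor subunit Il1rap, the decoy Il18bp, the inflammasome genes Nlrp3, Pycard and Casp1, and Acod1. They were taken by gene symbol from an Affymetrix mouse array table, and all 10 had 1 row each among 16492 gene rows. Each array measured total RNA of 1 stable clone grown from a single cell, with 5 RAW-FoxQ1 clones (7.1 to 7.5) and 4 RAW-vector clones (4 to 7). RAW-FoxQ1 clones carried a construct for mouse FoxQ1, a forkhead transcription factor, in pEF6/V5-His TOPO, and RAW-vector clones carried the same vector without an insert. Both kinds of clone were kept under blasticidin S at 6 µg/ml. No cytokine or LPS is named for the cells used on the arrays, so all levels given here are read as those of unstimulated cells. The question for each gene was whether its level differed between the groups by more than it varied among clones of a group. In RNA of a whole culture, a change in every cell and a change in the share of cells that use a gene cannot be told apart.

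Interleukin 1 alpha and beta act through a receptor that pairs with the accessory protein encoded by Il1rap, and Il1rn encodes a secreted antagonist that occupies this receptor without passing a signal. Interleukin 1 beta and interleukin 18 are made as inactive precursors. Caspase-1, encoded by Casp1, cleaves them after a sensor such as NLRP3 has assembled an inflammasome through the adaptor ASC, the product of Pycard. Il18bp encodes a soluble protein that binds interleukin 18, and Acod1 encodes the mitochondrial enzyme that makes itaconate from cis-aconitate, a gene that macrophages are known to raise after LPS. RAW cells are known to lack ASC.

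Il1rn rose, Il18 fell, and Il18bp rose by a small step, while the other 7 members did not pass the test (limma, Benjamini-Hochberg adjusted p under 0.05 over all genes). Thus 3 of 10 members, or 30%, were called, against 40.9% of all genes tested. By direction, 2 members were called higher against 19.6% of all genes, and 1 lower against 21.4%. The groups did not overlap for the same 3 members, against 36.1% of all genes. The share of members called was therefore no higher than that of the array as a whole. The median log2 fold change was 0.029 over the members and -0.014 over all genes. When each array was centred on its ribosomal protein genes, the median of all genes moved to 0.22, with 11033 genes called higher and 1510 lower against 3225 and 3523, and 6 members were called higher and 1 lower. Directions given here are therefore relative to the authors' scaling, and the 3 members called kept theirs under that centring.

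**Figure D1:**
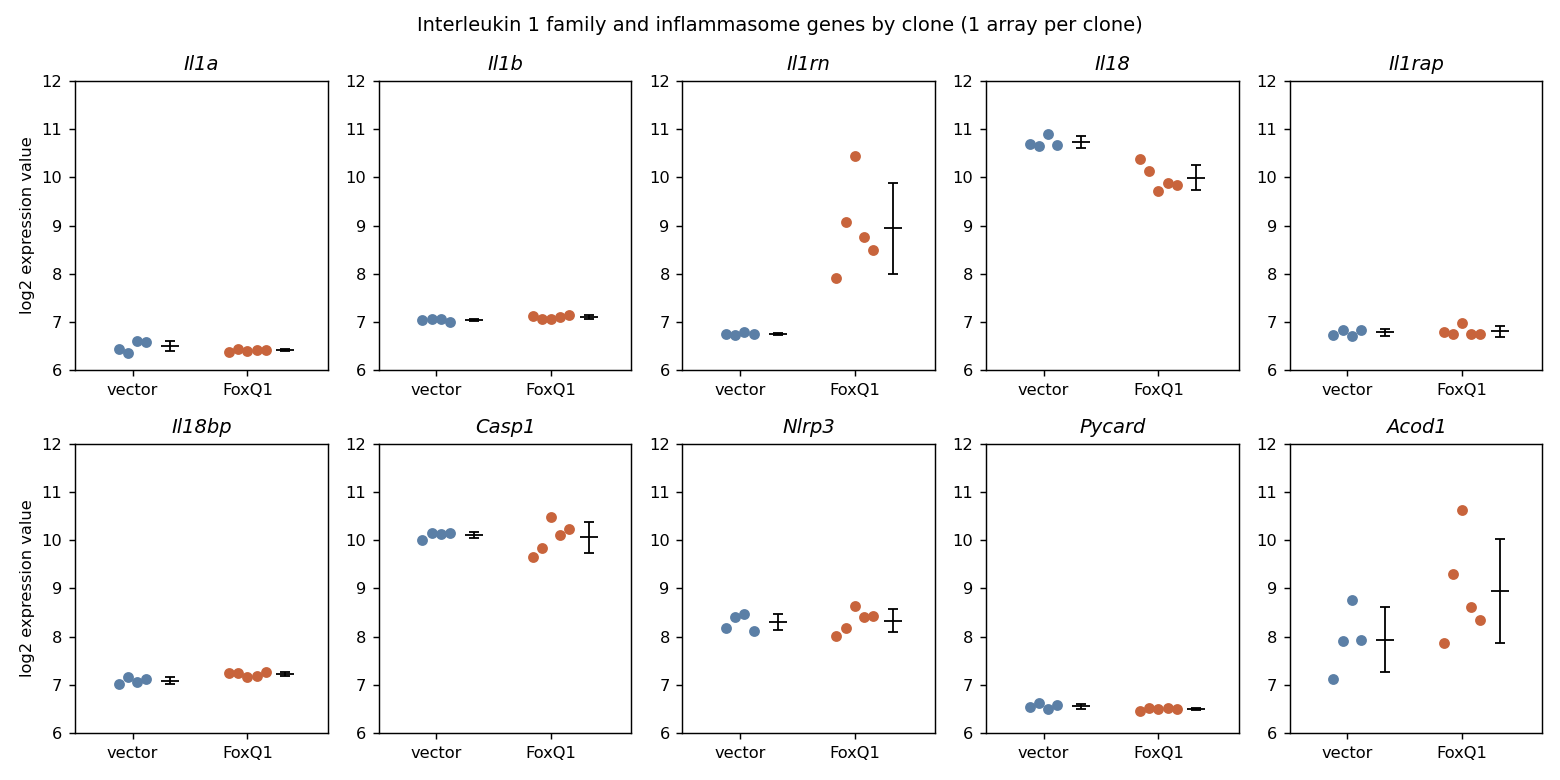
Log2 expression value (vertical axis, the same scale in each panel) of the 10 members in 4 RAW-vector clones (blue) and 5 RAW-FoxQ1 clones (orange), with 1 point per clone and the mean ± SD beside the points. Il1rn lay near 6.76 in all RAW-vector clones and from 7.91 to 10.45 with FoxQ1, and Acod1 spread widely in both groups.

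Across the series, the Foxq1 row ranged from 6.94 to 7.01 in RAW-vector clones and from 7.27 to 7.44 in RAW-FoxQ1 clones (log2 fold change 0.39, standard error 0.040, limma adjusted p = 4.7e-05), in the direction of the labels. The group means of this row lay at percentiles 35.6 and 47.5 of all genes, a weak signal, so the difference is one of array values. Arrays correlated at 0.988 to 0.998 within RAW-vector, at 0.981 to 0.997 within RAW-FoxQ1 and at 0.934 to 0.968 between the groups, over all genes. Of 9 macrophage markers measured, Csf1r, Lyz2, Spi1, Cd14 and Ptprc were not called, Fcgr1 was higher, and Adgre1 (F4/80), Mpeg1 and Itgam were lower, with log2 fold changes of -2.38, -1.60 and -0.65. Of 23 markers of other cell types, 0 were called higher and 3 lower, and their mean ranged over 6.79 to 6.84 in RAW-vector and 6.75 to 6.81 in RAW-FoxQ1 arrays. The poly-A spike-in controls were lower on the RAW-FoxQ1 arrays (7.92 to 8.38 against 8.41 to 8.70), as was the mean of 24 glycolysis and hypoxia genes (9.04 to 9.85 against 10.1 to 10.6). Each of these means had an exact permutation p of 0.0159, two-sided, where 5 clones against 4 allow no p below 0.00794. Their part in the results was not tested apart from the covariate fits given below.

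Il1rn was the member with the largest difference. Its log2 values were 6.75, 6.73, 6.78 and 6.76 in RAW-vector clones 4, 5, 6 and 7. In RAW-FoxQ1 clones 7.1, 7.2, 7.3, 7.4 and 7.5 they were 7.91, 9.08, 10.45, 8.77 and 8.49. Every RAW-FoxQ1 clone thus lay above every RAW-vector clone, and clone 7.3 stood highest. The means were 6.76 ± 0.021 (SD, n = 4) and 8.94 ± 0.948 (SD, n = 5). They differed by a log2 fold change of 2.19 (standard error 0.415, 95% interval 1.25 to 3.12) or 4.55-fold (limma adjusted p = 0.00209; exact permutation p = 0.0159, two-sided). Without clone 7.3 the log2 fold change was 1.81. In RAW-vector clones the Il1rn signal was at the level of genes these cells should lack, since 11 of the 23 other-cell markers were at or above its mean there and 0 in RAW-FoxQ1 clones, so the fold is one of array values and signal over background limits its lower side. The call was lost with the poly-A spike-in mean as a covariate (1.46, limma adjusted p = 0.279) and with the glycolysis and hypoxia mean as a covariate (0.62, adjusted p = 0.677), both of which followed the groups closely (correlation with the group of -0.86 and -0.89 over the 9 arrays), so that group and covariate can hardly be told apart.

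Il1rn spans chr2:24336860-24351491 in GRCm38.p6, and RefSeq promoter windows around 3 of its start sites were used. A pair of them is shown because Il1rn carried the largest change and FoxQ1 is a forkhead factor whose core motif TGTTTA was searched in them. Capitals mark matches on either strand to that core, to a loose NF-kappaB motif, and to short motifs of other factors of macrophage promoters. These were TGANTCA for AP-1, the dimer of Fos and Jun proteins, and GAGGAA for PU.1, the myeloid lineage factor encoded by Spi1. The letters TTGCNNAA stood for the C/EBP factors, which also act in myeloid cells, and TATAAA for the TATA box. No matches overlap in the windows printed here.
Il1rn, first start site, chr2:24336610-24336909, + strand: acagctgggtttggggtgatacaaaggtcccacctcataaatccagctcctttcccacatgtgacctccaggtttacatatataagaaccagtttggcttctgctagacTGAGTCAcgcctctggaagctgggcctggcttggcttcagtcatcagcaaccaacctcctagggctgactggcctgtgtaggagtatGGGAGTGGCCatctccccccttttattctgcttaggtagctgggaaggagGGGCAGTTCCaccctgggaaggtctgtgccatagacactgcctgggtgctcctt
Il1rn, a later start site, chr2:24345121-24345420, + strand: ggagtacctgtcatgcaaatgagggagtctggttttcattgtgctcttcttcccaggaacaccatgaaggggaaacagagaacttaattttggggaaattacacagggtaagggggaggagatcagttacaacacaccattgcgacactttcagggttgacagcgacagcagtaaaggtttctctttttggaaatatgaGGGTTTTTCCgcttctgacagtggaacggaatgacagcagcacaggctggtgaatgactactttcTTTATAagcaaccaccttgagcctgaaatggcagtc
The first window holds an AP-1 match and matches to the NF-kappaB motif, one of which crosses the start site, and the later window holds one match to the NF-kappaB motif and a TATAAA on the minus strand after the start. Neither window holds the forkhead core. A match is a description of letters only, and binding was not measured.

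No gene beside Il1rn on the chromosome was called higher. The neighbours on one side were the interleukin 1 family genes Il1f5, which encodes the interleukin 36 receptor antagonist, with a log2 fold change of -0.049 (adjusted p = 0.389), and Il1f10, which was called lower by a small step (-0.11, adjusted p = 0.0138) and turned to 0.12 with ribosomal centring. On the other side were Psd4 (-0.0003, adjusted p = 0.995) and Pax8 (-0.093, adjusted p = 0.0859). The 5 named genes whose values over the 9 clones were most like those of Il1rn, by the root mean square difference of gene-centred log2 values, were Flt1 (0.28), Slc6a4, Spink5, Afp and Tuba4a. Flt1, a receptor of vascular endothelial growth factor, lay between 6.58 and 6.68 in RAW-vector clones and at 8.02, 8.87, 9.48, 8.54 and 8.28 in RAW-FoxQ1 clones 7.1 to 7.5, with the same clones highest and lowest as for Il1rn, as a choice by likeness favours.

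Il18 fell. Its log2 values were 10.70, 10.65, 10.91 and 10.67 in RAW-vector clones 4 to 7, and 10.38, 10.13, 9.73, 9.89 and 9.84 in RAW-FoxQ1 clones 7.1 to 7.5. All RAW-FoxQ1 clones lay below all RAW-vector clones, with clone 7.1 nearest to them and clone 7.3 farthest. The log2 fold change was -0.74 (standard error 0.126, 95% interval -1.02 to -0.45), 1.67-fold lower (limma adjusted p = 0.00109; exact permutation p = 0.0159, two-sided), and between -0.83 and -0.67 with any 1 clone left out. None of the 23 other-cell markers reached the Il18 mean of either group. With the glycolysis and hypoxia covariate the value was -0.31 (adjusted p = 0.479), whereas it kept its call with the poly-A covariate. Il18 lies at chr9:50554700-50581841 in GRCm38.p6, and its first bases overlap those of Bco2, a carotenoid-cleaving dioxygenase, which was also lower (log2 fold change -0.36, adjusted p = 0.0114). Tex12, within the span of Il18, was not called (-0.028, adjusted p = 0.623), nor was Pts (0.0076, adjusted p = 0.965), while Sdhd, a subunit of succinate dehydrogenase, was called lower (-0.20, adjusted p = 0.0297), a call that ended without clone 4 or 7 of RAW-vector or without 7.3, 7.4 or 7.5 of RAW-FoxQ1. The Il18 window is shown because it is the promoter of the member that fell, with the same motifs in capitals.
Il18, chr9:50554450-50554749, + strand: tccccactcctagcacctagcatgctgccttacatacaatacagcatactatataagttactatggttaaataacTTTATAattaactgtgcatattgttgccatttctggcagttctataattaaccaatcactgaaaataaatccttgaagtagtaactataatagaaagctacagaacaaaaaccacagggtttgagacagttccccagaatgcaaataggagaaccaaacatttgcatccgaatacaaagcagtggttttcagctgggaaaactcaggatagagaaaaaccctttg
It holds a single match, a TATAAA on the minus strand.

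Il18bp rose by a small step. It was at 7.01, 7.16, 7.05 and 7.11 in RAW-vector clones 4 to 7 and at 7.24, 7.23, 7.16 and 7.17 in RAW-FoxQ1 clones 7.1 to 7.4, with 7.26 in clone 7.5. The groups lay apart by a margin smaller than the range within either. Its signal was weak, with 5 and 3 of the 23 other-cell markers at or above its RAW-vector and RAW-FoxQ1 means. At that level the step is one of array values and does not bound a difference in mRNA. The log2 fold change of 0.13 (standard error 0.040, 95% interval 0.040 to 0.22) had a limma adjusted p of 0.0262 and an exact permutation p of 0.00794. Leaving out clone 4 or 6 of RAW-vector, or 7.1, 7.2 or 7.5 of RAW-FoxQ1, ended this call (adjusted p up to 0.0785), as did the poly-A covariate (0.23, adjusted p = 0.0669) and the glycolysis and hypoxia covariate (0.15, adjusted p = 0.367), both with a larger standard error and no smaller difference. Of its neighbours on chromosome 7, Rnf121 (0.51, adjusted p = 0.00207) and Numa1 (0.27, adjusted p = 0.00914) were higher, Lrrc51 (-0.56, adjusted p = 0.000857) was lower, and Trpc2 (-0.038, adjusted p = 0.664) was not called.

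**Figure D2:**
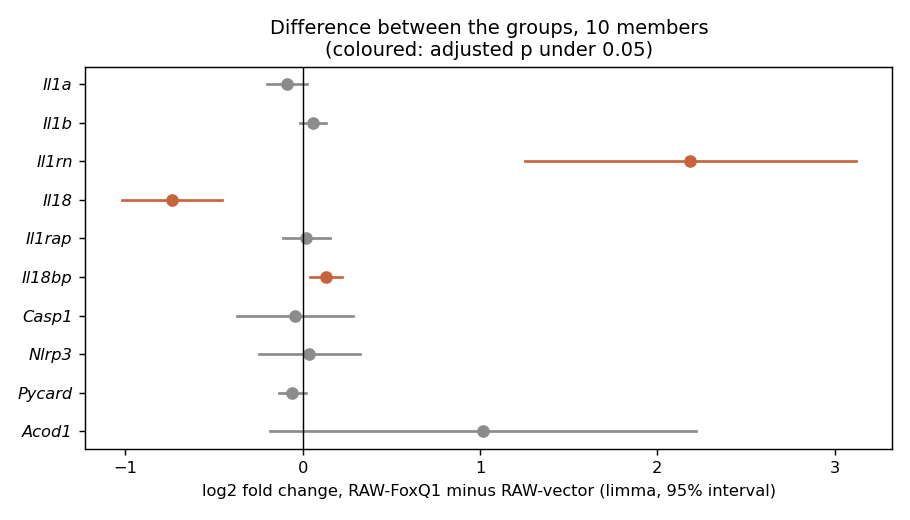
Log2 fold change (horizontal axis, RAW-FoxQ1 minus RAW-vector) of the 10 members with its 95% interval from limma, coloured where the adjusted p was under 0.05. Il1rn (2.19), Il18 (-0.74) and Il18bp (0.13) are coloured, and the interval of Acod1 runs from -0.19 to 2.22.

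Acod1 varied more among clones than between groups. Its log2 values were 7.12, 7.91, 8.76 and 7.94 in RAW-vector clones 4 to 7. In RAW-FoxQ1 clones 7.1 to 7.5 they were 7.86, 9.29, 10.63, 8.61 and 8.34. The groups overlapped, since RAW-vector clone 6 lay above RAW-FoxQ1 clones 7.1, 7.4 and 7.5. The mean was 7.93 ± 0.673 (SD, n = 4) and 8.95 ± 1.08 (SD, n = 5), and the log2 fold change of 1.02 (standard error 0.535, 95% interval -0.19 to 2.22) did not pass the test (limma adjusted p = 0.169; exact permutation p = 0.159, two-sided). It was 0.59 without clone 7.3. With the poly-A covariate it was -0.13 and with the glycolysis and hypoxia covariate -1.35, neither of which passed the test, whereas with ribosomal centring it was 1.25 and was called (adjusted p = 0.0449). Acod1 lies at chr14:103047012-103056573 in GRCm38.p6, and its window is printed because its clones ran in the same order as those of Il1rn within RAW-FoxQ1, with the motifs in capitals as above.
Acod1, chr14:103046762-103047061, + strand: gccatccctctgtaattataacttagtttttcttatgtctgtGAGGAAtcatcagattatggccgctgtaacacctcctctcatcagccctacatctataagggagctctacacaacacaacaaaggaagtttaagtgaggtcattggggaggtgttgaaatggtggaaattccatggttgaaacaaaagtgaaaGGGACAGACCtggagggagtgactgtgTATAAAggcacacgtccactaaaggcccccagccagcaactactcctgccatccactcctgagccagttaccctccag
It holds matches to the PU.1 and NF-kappaB motifs and a TATAAA just before the start, and not the forkhead core. Over all members, TGTTTA was in 0 of 13 windows, against 13.4% of the 32851 windows of the table. The NF-kappaB motif was in 8 of 13 (50.8% of all windows), GAGGAA in 5 (28.3%), TATAAA in 5 (13.6%), TGANTCA in 2 (7.81%) and TTGCNNAA in 2 (10.8%). These are counts of windows and not of genes, since Il1rn has 3 windows and Nlrp3 has 2. Windows 2 and 3 of Il1rn overlap and share the same NF-kappaB match, which is thus counted more than once. No match in these windows says nothing of sites elsewhere.

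The genes most like Acod1 over the 9 clones were Msr1 (root mean square difference 0.39), Tmem26, Adam8, Dok2 and C3ar1. Msr1 encodes a class A scavenger receptor of macrophages, and C3ar1 the receptor for complement fragment C3a. Msr1 was at 8.89, 9.21, 9.36 and 8.99 in RAW-vector clones 4 to 7 and at 9.33, 10.13, 11.31, 9.87 and 9.93 in RAW-FoxQ1 clones 7.1 to 7.5, with a log2 fold change of 1.00 (adjusted p = 0.0352).

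The RAW-FoxQ1 clones ran in the same order for Il1rn and Acod1, and in another order shared by Casp1 and Nlrp3. Relative to the RAW-vector mean, Il1rn was higher by 1.16, 2.32, 3.70, 2.01 and 1.74 in RAW-FoxQ1 clones 7.1 to 7.5. Acod1 put them in the same order, from 7.3 down to 7.2, 7.4, 7.5 and 7.1, while Casp1 and Nlrp3 ran from 7.3 down to 7.5, 7.4, 7.2 and 7.1. Clone 7.3 was the highest RAW-FoxQ1 clone for 5 members (Il1rn, Acod1, Casp1, Nlrp3 and Il1rap) and the lowest for 2 (Il18 and Il18bp), and clone 7.1 was the lowest for 6. Over all genes, clone 7.3 was highest for 29.7% and lowest for 24.8%, and clone 7.1 lowest for 24%. The spread among RAW-FoxQ1 clones was larger than that among RAW-vector clones for 7 of 10 members, with a median ratio of the SDs of 1.52, whereas over all genes it was larger for 48.5% with a median ratio of 0.975. The ratio was largest for Il1rn (44.6), whose RAW-vector values lay at the level of genes these cells should lack. Il1b and Il1rap, also among the 7, gave weak signals. At such levels an SD describes array values and not a spread in mRNA. All these values are descriptions, and the difference in spread was not tested.

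**Figure D3:**
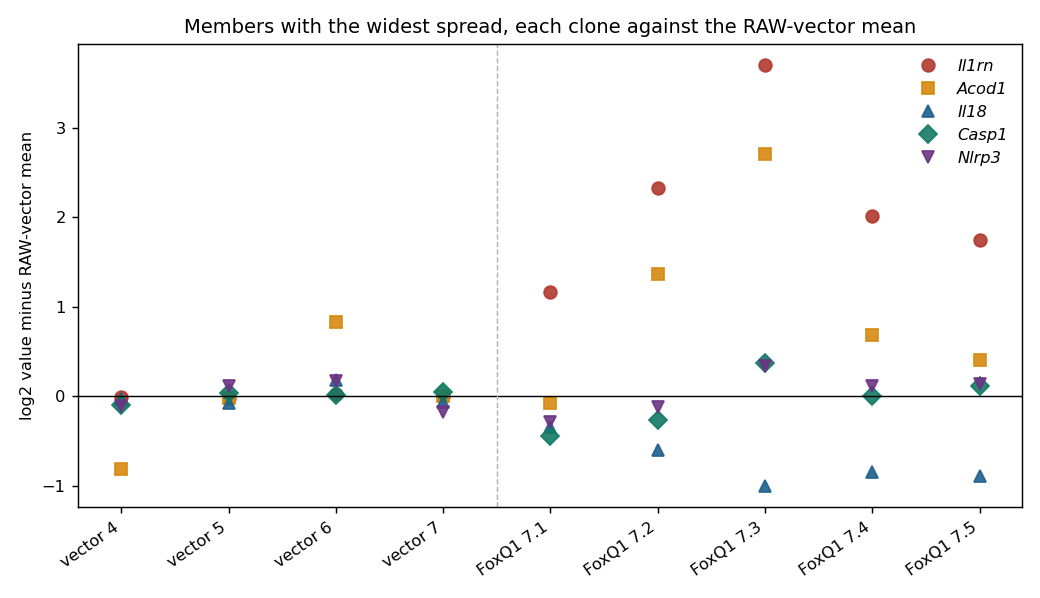
Log2 value minus the RAW-vector mean (vertical axis) for Il1rn, Acod1, Il18, Casp1 and Nlrp3 in each of the 9 clones, RAW-vector left of the dashed line and RAW-FoxQ1 right of it. Clone 7.3 holds the highest point of Il1rn (3.70) and the lowest of Il18.

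The glycolysis and hypoxia genes varied over the same clones. Their mean was lowest in clone 7.3 (9.04) and highest in clone 7.1 (9.85) among RAW-FoxQ1 clones, the reverse of Il1rn, Acod1 and Nlrp3 and the same way as Il18. Among RAW-vector clones it was 10.6 in clones 4 and 7, 10.2 in clone 5 and 10.1 in clone 6. Nlrp3 was higher in clones 5 and 6 (8.41 and 8.46) than in 4 and 7 (8.19 and 8.12). Acod1 was highest in clone 6 and lowest in clone 4, but nearly equal in clones 5 and 7 (7.91 and 7.94). Il1rn moved over only 6.73 to 6.78 in the RAW-vector clones. Il18 did not go the same way as the glycolysis and hypoxia mean there. It was highest in clone 6 (10.91) and lay at 10.70, 10.65 and 10.67 in clones 4, 5 and 7. Adgre1, the F4/80 gene, was also lowest in clone 7.3, at 7.14, while the other clones with FoxQ1 lay at 8.40 to 9.48 and the RAW-vector clones at 11.04 to 11.14. What these measures share with the members beyond the clones was not tested.

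**Figure D4:**
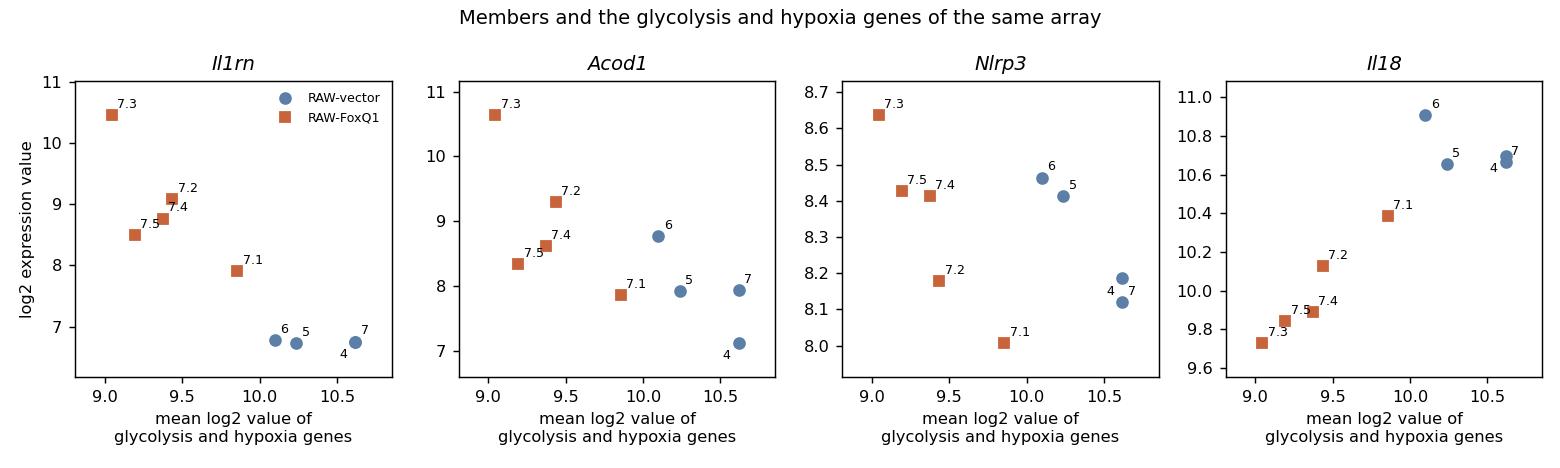
Log2 value of Il1rn, Acod1, Nlrp3 and Il18 (vertical axes, scaled to each gene) against the mean log2 value of 24 glycolysis and hypoxia genes of the same array (horizontal axis), with 1 labelled point per clone. The RAW-FoxQ1 clones lie at 9.04 to 9.85 and the RAW-vector clones at 10.1 to 10.6 on the horizontal axis, so the groups do not overlap on it.

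For the inflammasome core, no difference between the groups passed the test. Nlrp3, the sensor, was at 8.19, 8.41, 8.46 and 8.12 in RAW-vector clones 4 to 7 and at 8.01, 8.18, 8.64, 8.41 and 8.43 in RAW-FoxQ1 clones 7.1 to 7.5. Its log2 fold change was 0.037 (standard error 0.127, 95% interval -0.25 to 0.32, limma adjusted p = 0.857). With the glycolysis and hypoxia covariate it turned to -0.68 (adjusted p = 0.00475), although the groups do not overlap on that covariate. Casp1, the protease, was at 10.01, 10.14, 10.12 and 10.15 in RAW-vector clones 4 to 7 and at 9.66, 9.84, 10.48, 10.11 and 10.22 in RAW-FoxQ1 clones 7.1 to 7.5. The RAW-FoxQ1 clones lay on both sides of the RAW-vector clones, and the log2 fold change was -0.044 (95% interval -0.37 to 0.28, limma adjusted p = 0.85). With the glycolysis and hypoxia covariate it was -0.72 (adjusted p = 0.0581). Pycard, the adaptor, was at 6.50 to 6.62 in RAW-vector and at 6.46 to 6.52 in RAW-FoxQ1 clones, with 13 and 15 of the 23 other-cell markers at or above its means. Its log2 fold change was -0.059 (95% interval -0.14 to 0.016, adjusted p = 0.201) at that signal.

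The interleukin 1 ligands and the receptor subunit gave weak signals that did not pass the test. With ribosomal centring, which moved the median of all genes up by a like amount, Il1b (0.29, adjusted p = 0.00158) and Il1rap (0.25, adjusted p = 0.00835) were called higher. Il1b was at 7.05, 7.05, 7.06 and 7.00 in RAW-vector clones 4 to 7 and at 7.12, 7.05, 7.07, 7.09 and 7.15 in RAW-FoxQ1 clones 7.1 to 7.5. The groups overlapped, and the log2 fold change of 0.058 (standard error 0.032, 95% interval -0.015 to 0.13) had a limma adjusted p of 0.193, although its unadjusted exact permutation p was 0.0476. Il1a lay between 6.37 and 6.60 in RAW-vector and between 6.38 and 6.43 in RAW-FoxQ1 clones (log2 fold change -0.091, 95% interval -0.20 to 0.022, adjusted p = 0.19), with 15 and 17 of the 23 other-cell markers at or above its means. Without RAW-vector clone 5, the lowest of its group, it was -0.14 with an adjusted p of 0.0354. Il1rap was at 6.71 to 6.84 in RAW-vector clones and at 6.74 to 6.79 in 4 RAW-FoxQ1 clones, with 6.99 in clone 7.3 (log2 fold change 0.021, 95% interval -0.11 to 0.15, adjusted p = 0.822). It turned to -0.026 without that clone. At these levels the intervals describe array values and do not bound a difference in mRNA. The genes most like Il1b over the clones, Rnf207, Brsk2, Ell3, Fance and Cyp1b1, moved within as narrow a range, with a root mean square difference from it of 0.02 to 0.03.

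Of 15 further receptors and ligands of the family listed, 13 had a row, of which 1 was higher, 1 lower and 11 not called, a share of 15.4% against 40.9% of all genes, with a median log2 fold change of -0.026 against -0.014 (11 higher and 0 lower with ribosomal centring). Il18rap, the signalling subunit of the interleukin 18 receptor, was the one that rose. It was at 6.90, 6.75, 6.88 and 6.94 in RAW-vector clones 4 to 7 and at 7.57, 7.67, 8.25, 8.06 and 7.95 in RAW-FoxQ1 clones 7.1 to 7.5, so the groups lay well apart. The log2 fold change was 1.03 (standard error 0.128, limma adjusted p = 0.000151) and at least 0.95 with any 1 clone left out. Its RAW-vector mean lay at percentile 31.3 of all genes (Il1rn at 26.1), so signal over background limits the lower side of this fold too. It kept its call with the poly-A covariate (1.09) but not with the glycolysis and hypoxia covariate (0.60, adjusted p = 0.157). Il18r1, the ligand-binding subunit of the same receptor, was not called (0.0006, adjusted p = 0.994) at a signal of 6.11 to 6.39. The interleukin 1 receptor gene Il1r1 (0.058, adjusted p = 0.328) and the decoy receptor gene Il1r2 (-0.066, adjusted p = 0.196) were not called.

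Of 30 genes listed for further inflammasome sensors, partners and the steps of pyroptosis, 22 had a row. Of these 5 were higher and 10 lower, a share of 68.2% called against 40.9% of all genes, with a median log2 fold change of -0.17 against -0.014. Without rows below the 40th percentile of mean signal, 13 of 18 were called, against 6050 of 9895 genes in all. Txnip, a binding partner of thioredoxin that is also known to respond to glucose, was at 12.81 to 13.03 in RAW-vector and at 11.55, 11.09, 10.16, 10.49 and 10.47 in RAW-FoxQ1 clones 7.1 to 7.5 (log2 fold change -2.20, limma adjusted p = 8.98e-05). Ninj1, which ruptures the plasma membrane late in pyroptosis, fell from 11.88 to 12.22 down to 10.06 to 10.79 (-1.68, adjusted p = 3.44e-05). Casp4, the caspase that senses LPS inside the cell, was at 8.14 to 8.60 and 7.38 to 7.53 (-0.86, adjusted p = 2.97e-05). Aim2, a sensor of DNA in the cytosol, was at 8.12 to 8.29 and 7.26 to 7.57 (-0.78, adjusted p = 1.63e-05). The pore-forming Gsdmd was also lower, at 10.08 to 10.14 and 9.24 to 9.63 (-0.68, adjusted p = 0.000126). Each of these 5 genes separated the groups fully. Higher were Panx1, a channel that releases ATP (0.62, adjusted p = 0.0012), Brcc3, a deubiquitinase that acts on NLRP3 (0.47, adjusted p = 9.41e-06), the paracaspase gene Malt1 (0.42, adjusted p = 0.00127) and Naip2, a sensor of bacterial secretion systems (0.22, adjusted p = 0.023), whose call ended without clones 4, 7 or 7.4, each left out in turn. The others called were Casp8 at 0.21 and, on the lower side, Pstpip1, Gsdme, Sugt1, Naip6 and Bcl10 at -0.73 to -0.26. The call of Naip6 (adjusted p = 0.0493) was lost without clone 5, 6, 7.1, 7.2, 7.3 or 7.5, and those of Casp8 and Bcl10 without clone 5. With ribosomal centring 10 genes of the list were called higher and 8 lower. With the glycolysis and hypoxia covariate, Casp4 (-1.15), Aim2 (-0.77), Ninj1 (-1.37) and Brcc3 (0.32) kept their calls, and Txnip (-0.97), Gsdmd (-0.41), Panx1 (0.41) and Malt1 (0.33) lost them.

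**Figure D5:**
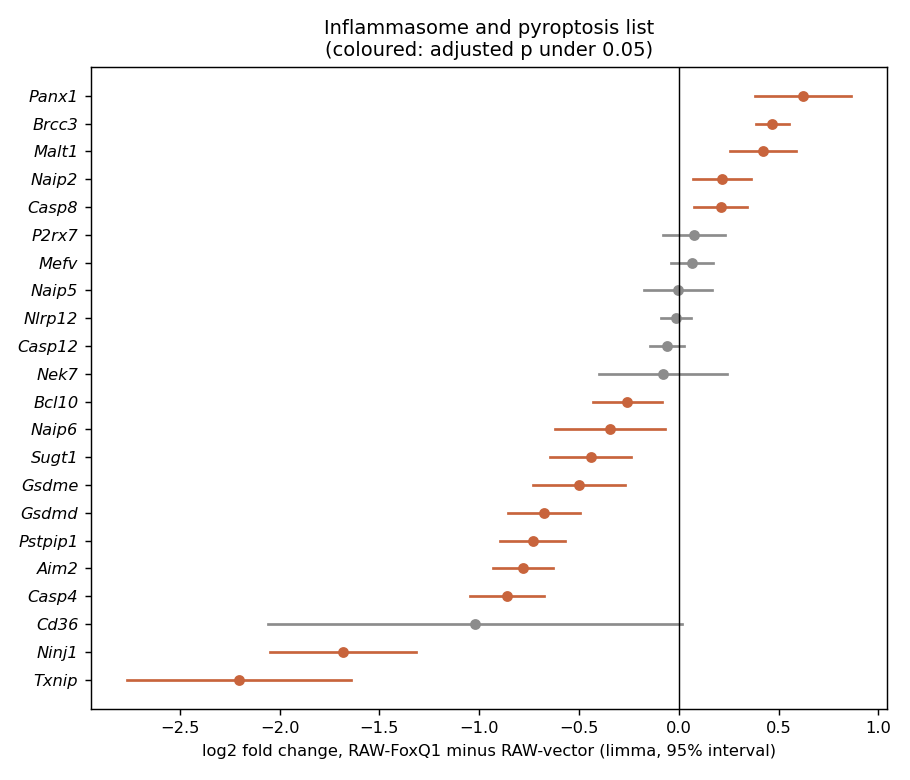
Log2 fold change (horizontal axis, RAW-FoxQ1 minus RAW-vector) with its 95% interval from limma for the 22 measured genes of the inflammasome and pyroptosis list, ordered by size and coloured where the adjusted p was under 0.05. Txnip (-2.20) and Ninj1 (-1.68) lie farthest below 0 and Panx1 (0.62) farthest above.

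Of 21 genes of the MyD88 pathway listed, which carries the signal of interleukin 1 and 18 receptors, 17 had a row, with 3 higher and 2 lower (29.4% called, against 40.9% of all genes) and a median log2 fold change of -0.011. With ribosomal centring 13 were higher and 1 lower. The kinase gene Irak2 fell from 9.11 to 9.22 in RAW-vector down to 8.40 to 8.63 in RAW-FoxQ1 clones (log2 fold change -0.61, adjusted p = 1.12e-05), and the kinase gene Map3k8 was at -0.39 (adjusted p = 0.00657). Irak2 kept its call with either covariate and with ribosomal centring. Map3k8 lost its call with poly-A (-0.26, adjusted p = 0.392), with glycolysis and hypoxia (-0.042, adjusted p = 0.906) and with ribosomal centring (-0.15, adjusted p = 0.106). Map3k7, encoding the kinase TAK1, was higher by 0.74 (adjusted p = 0.00765), with Tab3 at 0.25 and Ube2n at 0.28. All 3 lost their calls with either covariate, Map3k7 at 0.37 with poly-A (adjusted p = 0.537) and 0.33 with glycolysis and hypoxia (adjusted p = 0.658). The call of Ube2n was also lost with 6 of the 9 clones when left out in turn (RAW-vector 6 and 7, and RAW-FoxQ1 7.1, 7.2, 7.4 and 7.5). Myd88 itself was at 0.16 (adjusted p = 0.0645).

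Of 24 listed genes that macrophages are known to raise with LPS, as they do Il1b and Acod1, 23 had a row, with 3 higher and 6 lower (39.1% called, near the 40.9% of all genes) and a median log2 fold change of -0.074, or 12 higher and 4 lower with ribosomal centring. The chemokine gene Cxcl2 was at 6.73 to 6.85 in RAW-vector clones and at 7.89, 6.99, 7.89, 7.90 and 7.77 in RAW-FoxQ1 clones 7.1 to 7.5 (log2 fold change 0.91, adjusted p = 0.00228). Its RAW-vector mean lay at percentile 27.2 of all genes, a weak signal. The call was lost with the poly-A covariate (1.15, adjusted p = 0.059) and the glycolysis and hypoxia covariate (0.91, adjusted p = 0.194). With these covariates 0 genes of the list were called higher, and 3 and 4 were called lower. Cxcl10 (0.43) and Lcn2 (0.20) were the others that rose, the former not without RAW-vector clone 4 (limma adjusted p = 0.0598). Cd40, a costimulatory receptor, was at 7.95 to 8.53 and 6.96 to 7.04 (-1.29, adjusted p = 1.29e-05). The lectin receptor gene Clec4e (-1.22), the acute phase gene Saa3 (-0.81) and the ubiquitin-editing Tnfaip3 (-0.42) also fell. Tnf was at 8.57 to 9.42 and 8.85 to 10.09, with its highest value in clone 7.3 and a log2 fold change of 0.25 (adjusted p = 0.507). Il6 (-0.043, adjusted p = 0.427) and Nos2 (0.041, adjusted p = 0.491) were not called.

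Of 25 genes of the citrate cycle and of citrate use around itaconate listed, 24 had a row, with 7 higher and 6 lower (54.2% called, against 40.9% of all genes) and a median log2 fold change of 0.041, or 15 higher and 1 lower with ribosomal centring. All genes include many rows of weak signal. Without rows below the 40th percentile of mean signal, 15 of these 24 were called, against 6050 of 9895 genes in all, so the list showed no clear excess. Higher were Idh3a (0.68), Suclg1 (0.58), Mdh2 (0.55) and Sucla2 (0.46), encoding subunits of isocitrate dehydrogenase, of succinyl-CoA synthetase and malate dehydrogenase. Lower were Pdha1 (-0.48), Idh3b (-0.47), Acly (-0.43) and Idh1 (-0.41). Pdha1, Acly and Idh1 lost their calls with ribosomal centring and with the glycolysis and hypoxia covariate. With the poly-A covariate Pdha1, Idh1 and Sucla2 lost theirs. Idh3a, Suclg1, Mdh2 and Idh3b kept their calls in these 3 settings. Idh3a and Idh3b encode subunits of the same enzyme and moved in opposite directions, with Idh3a at 9.18 to 9.48 in RAW-vector and 9.96 to 10.10 in RAW-FoxQ1 clones and Idh3b at 11.43 to 11.58 and 11.00 to 11.07 (limma adjusted p = 2.85e-05 and 1.94e-05). Of succinate dehydrogenase, the enzyme that itaconate inhibits, Sdha was not called (0.054, adjusted p = 0.364), and Sdhb was called higher (0.38, adjusted p = 0.00582) with overlapping groups, a call lost with the poly-A covariate (0.030, adjusted p = 0.905) and the glycolysis and hypoxia covariate (0.37, adjusted p = 0.285). The other subunits went the other way. Sdhd was called lower (-0.20, adjusted p = 0.0297), a call also lost with either covariate. Sdhc was not called (-0.11, adjusted p = 0.0861), although its groups did not overlap.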

How the data were processed

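RNA of 9 stable clones was measured on Affymetrix mouse arrays with 1 array per clone. The authors grouped probes by Entrez gene with a custom definition file and applied quantile normalization. RMA is named in the submitters' processing notes, without a version in the sources used here. The log2 expression values were taken as the authors deposited them. Sorted, the 9 columns are identical, with a median of 7.49. Neither background correction nor probe summary was varied here, and the number of arrays limits the precision.

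The table has 16556 rows, of which 64 are control probe sets and did not enter the fit, and 15270 of 16492 gene rows had 1 symbol in a table of the platform. Symbols not found were looked up through RefSeq synonyms. Sequences and coordinates are from RefSeq, GRCm38.p6. A linear model was fitted to the log2 values with limma's lmFit and eBayes (R 4.3.3, limma 3.58.1), with group as the one term and Benjamini-Hochberg adjustment over all gene rows, and the threshold was an adjusted p of 0.05. Single values were also given an exact permutation test, two-sided, over the clones. The NF-kappaB motif was searched as 3 G, any 5 bases and 2 C. Replicates are clones, and p-values set the difference between the groups against the spread between clones. With 1 array per clone, that spread includes variation between arrays. The fit was tested on simulated data.

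The members, the 5 gene lists, the motifs and the alternatives were chosen with earlier results of these data known. The rule names every member, up to 4 called genes per direction of each list, the 5 genes most like Il1b, Acod1 and the member of widest range, and the nearest neighbours of called members on the chromosome. Genes named beyond it (such as Gsdmd, Sdhb, Sdha, Sdhc, Il18r1, Il1r1, Il1r2, Myd88, Tnf, Il6, Nos2) were chosen after their values were seen. Alternatives were eBayes with trend and robust options, the methods' one-way ANOVA, limma's array weights, centring on ribosomal protein genes, a low-signal filter, a fold threshold, 2 covariates and leaving out each clone.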

Additional observations from a re-analysis of the deposited data

Results flagged for a closer look

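Il18 in RAW-vector clone 6 was at 10.91, apart from the other RAW-vector clones, of which the nearest was at 10.7, and this gap took 0.832 of the group's range, just past Dixon's limit for 4 values. Il1rap in RAW-FoxQ1 clone 7.3 was at 6.99, with the nearest clone at 6.79 and a gap of 0.812 of the range, past the limit for 5 values. With 20 group values examined in this way, chance flags about 1 in 20.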

How the results depend on the processing

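The count of members called went from 3 to 7 (6 higher, 1 lower) with each array centred on its ribosomal protein genes. It went to 1 (Il18) with the poly-A covariate, and to 1 (Il1rn) where a log2 fold change of 1 or more was asked for as well. With the glycolysis and hypoxia covariate it was also 1, but that member was Nlrp3, and the calls of Il1rn, Il18 and Il18bp were all lost. The count lay between 2 and 4 with any single clone left out. Centring on ribosomal protein genes moved the median of all genes from -0.014 to 0.22 and called 12543 genes instead of 6748. It gave 11 called genes in the receptor and ligand list (2 without it), 14 in the MyD88 list (5) and 16 in the LPS list (9). The poly-A covariate, with 2735 genes called in all, gave 1 in the receptor and ligand list, 9 in the inflammasome list (15 without it), 2 in the MyD88 list, 3 in the LPS list and 5 in the citrate cycle list (13). The glycolysis and hypoxia covariate, with 1953 genes called in all, gave 0, 6, 1, 4 and 6 in the same order. With single clones left out the lists had 2 to 3, 12 to 15, 4 to 6, 7 to 11 and 12 to 16 called. Directions turned for members that were not called in the fit with group as the one term: Il1a to 0.14, Casp1 to 0.19 and Pycard to 0.17 with ribosomal centring, the last with an adjusted p of 0.00976. Casp1 turned to 0.14 and Acod1 to -0.13 with the poly-A covariate. Il1rap turned to -0.060, Nlrp3 to -0.68 and Acod1 to -1.35 with the glycolysis and hypoxia covariate, and Il1rap to -0.0093 with array weights. Leaving out a clone turned Il1rap to -0.0024 (RAW-vector 6) and -0.026 (RAW-FoxQ1 7.3), Casp1 to 0.057 (7.1) and 0.012 (7.2), and Nlrp3 to -0.022 (RAW-vector 7) and -0.039 (7.3), out of ranges up to 0.041 for Il1rap, 0.057 for Casp1 and 0.12 for Nlrp3 (0.093 without RAW-vector 6). The cause of these shifts was not tested. Il1rn kept its call with any clone left out (1.81 to 2.44). ANOVA, the trend and robust setting and array weights moved no count of members by over 1.5 times. Among the list genes, Naip6 (adjusted p = 0.0959), Ube2n (0.0703), Icam1 (0.0596), Sdhd (0.0535) and Cxcl10 (0.0518) lost their calls under the ANOVA. The signal filter leaves out Il1a, Il1b, Il1rap and Pycard, which have no value under it. With this filter 6050 of 9895 genes were called, and 3 of 6 members. In the lists the counts were 2 of 4 receptors and ligands, 13 of 18 inflammasome genes and 5 of 16 MyD88 genes. They were 7 of 15 LPS genes and 15 of 24 citrate cycle genes. No paired analysis was possible because the groups share no replicate numbers. Signal over background limits what can be said of members near the level of genes these cells should lack.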
